A study of Mus musculus with 16 samples.

Results

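Skeletal muscle loses mass through a set of genes that are switched on together when insulin and growth factor signalling is low, when glucocorticoids are high or when the nerve supply is lost. The FoxO transcription factors, which the kinase Akt holds out of the nucleus, stand at its head and induce the muscle ubiquitin ligases atrogin-1 (Fbxo32) and MuRF1 (Trim63), which mark contractile and regulatory proteins for the proteasome. Of 10 genes listed for this programme, 9 had a probe set annotated to that gene alone. These are the ligases Fbxo32, Trim63 and Fbxo21, the transcription factors Foxo1, Foxo3 and Klf15, the translation repressor Eif4ebp1, the lysosomal protease Ctsl and the growth arrest gene Gadd45a. Cdkn1a, the cell cycle inhibitor p21, had no value, because its 1 probe set is also annotated to a second gene. Each of the 9 genes was represented by 1 probe set, and all 9 passed the filter on low values, out of 13919 genes tested and 19938 genes with such a probe set.

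RNA of whole gastrocnemius, a calf muscle made mostly of fast fibres, came from 16 male C57Bl6J mice, 1 GeneChip Mouse Gene 1.0 array per mouse, all fed for at least 8 weeks on butter fat supplying 40% of calories. The Ppp3cb line holds 4 mice labelled as global knockouts (KO) of Ppp3cb, the beta catalytic subunit of the phosphatase calcineurin, and 4 labelled as wild-type (WT) littermates. The Ppp3r1 line holds 4 mice lacking the calcineurin regulatory subunit Ppp3r1 in skeletal muscle, through a Cre recombinase under Mlc1f control, and 4 WT littermates. The labels give no age and do not say whether those littermates carry the Cre, so that loss of Ppp3r1 and presence of the Cre cannot be told apart. The study compares KO with WT muscle in each line, and all values below are log2 values.

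The targeted genes bear on the labels. Ppp3r1 lay between 8.98 and 9.28 in Ppp3r1 KO and between 9.36 and 9.64 in WT muscle, with no overlap. The difference was small, -0.32 (two-sided exact permutation p = 0.0286), and 1.71% of all tested clusters had the same separation. It goes with the labels but does not by itself show loss of the gene. Ppp3cb did not follow its labels. KO animals 18 and 5 (10.48 and 10.22) and WT animals 23 and 24 (10.37 and 10.23) were low, while KO animals 6 and 9 (11.74 and 11.61) and WT animals 12 and 2 (11.80 and 11.67) stood near the 11.47 to 11.70 of the Ppp3r1 line. The label is thus contradicted on 4 arrays, and a difference by label in that line does not measure loss of the gene. Array medians over all probe sets were 6.68 to 6.77 in the Ppp3cb line and 6.81 to 6.94 in the Ppp3r1 line. Over the tested clusters the order was the other way, 7.85 to 7.95 and 7.66 to 7.81. All 10 muscle markers looked for had a probe set, and their summed level was 17.13 to 17.25 on all arrays.

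In Ppp3r1 KO muscle the genes of the programme lay above WT on average, by a median of 0.35 on the log2 scale, but none of the 9 passed the test across all genes. All 9 mean differences were above 0, where 54.2% of all tested clusters were. Fbxo21 was at 0.00 and turned to -0.01 when each array was centred on its median over the tested clusters. The limma adjusted p lay between 0.363 and 0.993, and 0.00656% of the 15252 tested transcript clusters were called in this comparison. At an unadjusted limma p under 0.05 there were 5 of 9 (Eif4ebp1, Klf15, Foxo3, Gadd45a and Foxo1), all higher, against 6.37% of clusters higher and 5.35% lower. The 9 genes and the related lists were chosen with earlier results of these data known. Their counts beside the shares of all clusters are therefore a description and no independent support. The KO mice were unequal. Animal 414 held the highest KO value of all 9 genes and lay above every WT array for 9 of 9. Animal 331 lay above every WT array for 8, animal 416 for 5 and animal 335 for 1. The share of all clusters above every WT array was not computed for single animals. These counts therefore do not show a trait particular to the 9 genes. Correlations between arrays ran from 0.965 to 0.988 in the KO group and from 0.984 to 0.991 in the WT group. Without animal 414 the median over the 9 genes was 0.17, 8 were above 0 against 50.7% of clusters, and 3 had an unadjusted p under 0.05 against 4.26%. Animal 414 also had the lowest Ppp3r1 value, 8.98. Its summed tendon markers, 10.40, equalled those of animal 331, and WT ran from 10.94 to 11.70. Over the whole comparison 6 of 9 tendon markers (median -0.36) and 9 of 10 fibroblast and matrix markers (median -0.25) were lower and 8 of 9 slow-fibre markers higher (median 0.19). The part of other cells in the values below was not tested.

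**Figure D1:**
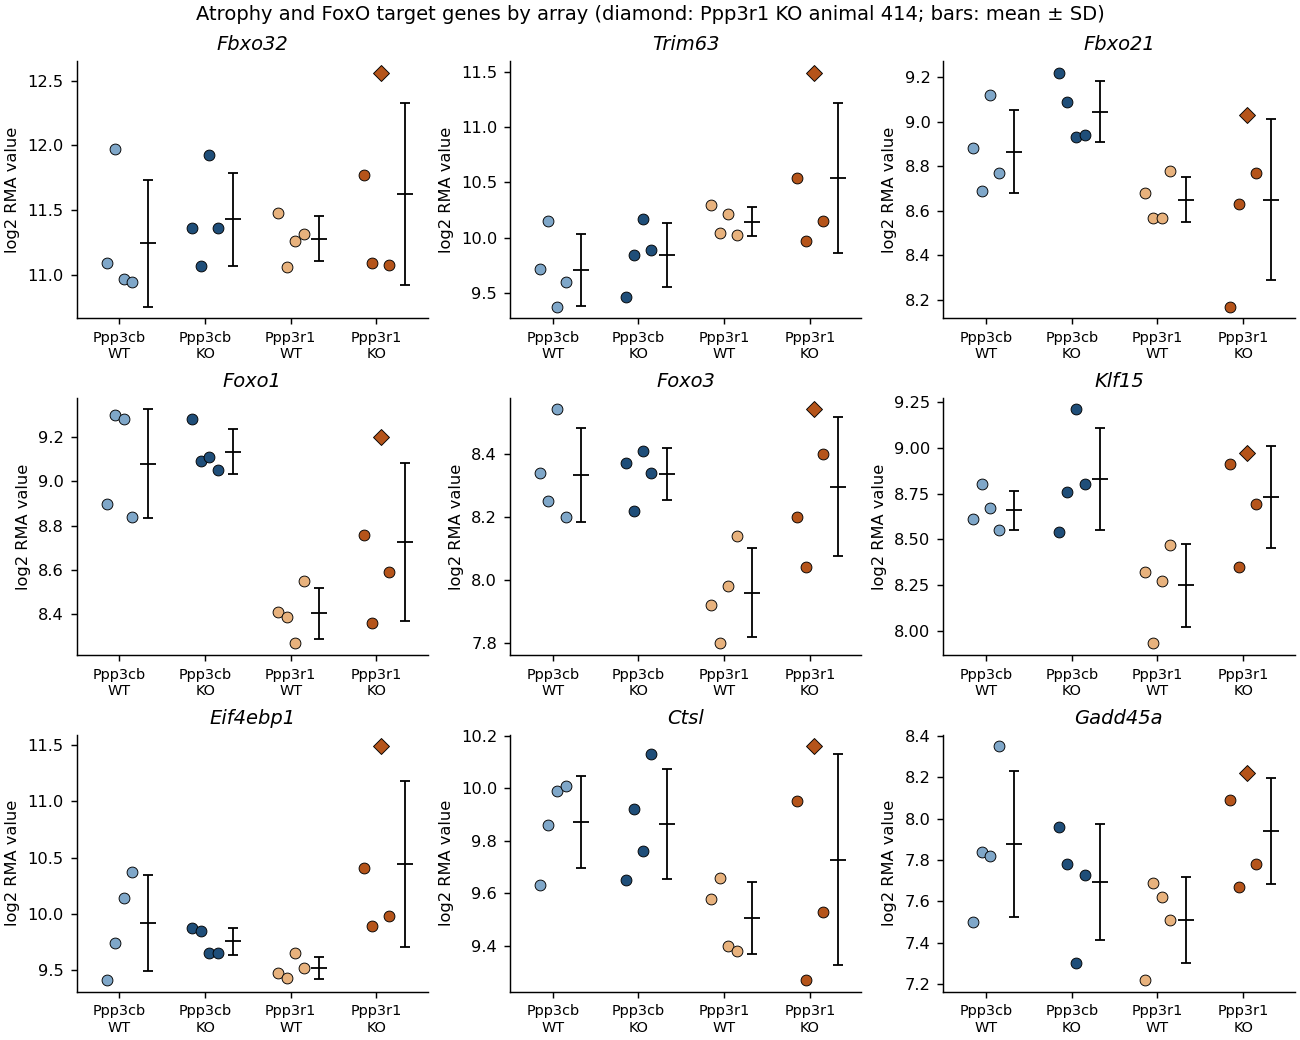
Log2 value of each of the 9 genes on every array (points, 1 per mouse), in the 4 groups by label, with the mean ± SD of each group (n = 4) as a bar beside them. The diamond is Ppp3r1 KO animal 414, the highest KO array of that line in all 9 panels.

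Among the transcription factors, Foxo1 was 8.76 in animal 331, 8.36 in 335, 9.20 in 414 and 8.59 in 416 of the Ppp3r1 KO group, and 8.41 in 334, 8.39 in 336, 8.27 in 413 and 8.55 in 415 of the WT group. The arrays of animals 331, 414 and 416 lay above all WT arrays, and that of animal 335 lay within their range. The difference was 0.32 (SE 0.15, two-sided exact permutation p = 0.143), or 0.17 without animal 414. Foxo3, a FoxO factor that induces both ligases and autophagy genes, was 8.20, 8.04, 8.54 and 8.40 in animals 331, 335, 414 and 416, and 7.92, 7.80, 7.98 and 8.14 in WT animals 334, 336, 413 and 415. Its groups overlapped by 1 array on each side, with a difference of 0.34 (SE 0.11, two-sided exact permutation p = 0.0571), or 0.25 without animal 414. Klf15, a glucocorticoid-induced factor that promotes breakdown of branched-chain amino acids, was 8.91, 8.35, 8.97 and 8.69 in the KO animals in the same order, and 8.32, 7.93, 8.27 and 8.47 in WT. Here too only animal 335 fell within the WT range, and the difference was 0.48 (SE 0.15, two-sided exact permutation p = 0.0571), a 1.40-fold difference.

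The mean differences of both main ligases rested on animal 414. Fbxo32 was 11.77 in KO animal 331, 11.09 in 335, 12.56 in 414 and 11.08 in 416, and lay between 11.06 and 11.48 in WT. Animals 331 and 414 were thus above the WT range, and animals 335 and 416 inside it. The difference of 0.35 (SE 0.28, two-sided exact permutation p = 0.4) became 0.04 (SE 0.24) without animal 414. Trim63 was 10.54, 9.97, 11.49 and 10.15 in KO animals 331, 335, 414 and 416, and 10.30, 10.04, 10.22 and 10.03 in WT animals 334, 336, 413 and 415. Animal 335 was below every WT array, and the difference of 0.39 (SE 0.25, two-sided exact permutation p = 0.371) became 0.07 (SE 0.18) without animal 414. Fbxo21, the substrate-binding part of an SCF ligase that FoxO factors induce, was 8.17, 8.63, 9.03 and 8.77 in the KO animals and 8.57 to 8.78 in WT. Its KO values spread on both sides of the WT range, with a 95% interval of the difference from -0.30 to 0.31.

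Promoter sequence was matched for 8 of the 10 listed genes in RefSeq (build GRCm38.p6, 250 bases before to 50 after a gene's start, 9 windows of 300 bases). The FoxO element was searched as TGTTTAC or TATTTAC on both strands, and 6.54% of all 32851 promoter windows held a match. Among the windows of the listed genes the 1 match was in Trim63, at bases -194 to -188 before the start. The Trim63 window is shown because this ligase is a known FoxO target, with the match in capitals (chr4:134314870-134315169, plus strand).
Trim63: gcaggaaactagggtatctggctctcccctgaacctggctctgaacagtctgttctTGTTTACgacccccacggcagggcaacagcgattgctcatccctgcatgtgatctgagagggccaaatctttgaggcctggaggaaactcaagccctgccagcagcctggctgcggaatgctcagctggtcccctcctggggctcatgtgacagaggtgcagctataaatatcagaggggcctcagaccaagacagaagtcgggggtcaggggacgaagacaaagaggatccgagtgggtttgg
The palindromic glucocorticoid response element was searched as AGAACA, 3 free bases and TGTTCT. Its exact letters were in none of the 9 windows and in 0.00913% of all windows. With 1 of its 12 fixed letters allowed to differ, a search added after the data were seen, it was in 0.164% of all windows and, among the listed genes, in that of Trim63, at bases -209 to -195, directly before the FoxO match. The ATF4 composite element TGATGNAA was in 3.97% of all windows and, among the listed genes, in that of Ctsl. A match describes these letters and says nothing of binding.

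Eif4ebp1, which encodes the repressor 4E-BP1 that blocks the cap-binding factor eIF4E, showed the largest difference of the 9 genes in Ppp3r1 KO muscle. Its values were 10.41 in animal 331, 9.89 in 335, 11.49 in 414 and 9.98 in 416, against 9.47 in 334, 9.43 in 336, 9.65 in 413 and 9.52 in 415 of the WT group. Every KO array was above every WT array, the only such gene of the 9, where 3.15% of all clusters had the same separation and 1.71% the opposite one. The difference was 0.92 (SE 0.26), a 1.90-fold difference with a 95% interval of 0.38 to 1.47. This SE and interval rest on a variance common to all 4 groups. The SD was 0.73 in Ppp3r1 KO and 0.09 in Ppp3r1 WT, so the interval may be too narrow for these groups. The two-sided exact permutation p = 0.0286 is the smallest that 4 against 4 arrays can give. Across all clusters it ranked 89 by p (limma adjusted p = 0.363). Without animal 414 the difference was 0.57 (SE 0.18), and over all alternatives the limma adjusted p ran from 0.102 to 0.843.

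Ctsl and Gadd45a complete the group. Ctsl, cathepsin L, is a lysosomal protease that rises in wasting muscle and is also made by macrophages. It was 9.95, 9.27, 10.16 and 9.53 in KO animals 331, 335, 414 and 416 and 9.38 to 9.66 in WT, so that the KO arrays lay both above and below the WT range. The difference was 0.22 (SE 0.16), or 0.07 without animal 414. Macrophage markers had a summed level of 10.58 to 10.78 in KO and 10.29 to 10.71 in WT, 8 of 10 tested markers were higher, and their part in the result was not tested. In whole muscle, fewer cells of a type and less RNA per cell cannot be told apart. Gadd45a, which is induced by denervation and by ATF4, was 8.09, 7.67, 8.22 and 7.78 in the KO animals and 7.22, 7.69, 7.62 and 7.51 in WT animals 334, 336, 413 and 415. Only KO animal 335 fell below the highest WT array, and the difference was 0.43 (SE 0.17, two-sided exact permutation p = 0.0571).

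**Figure D2:**
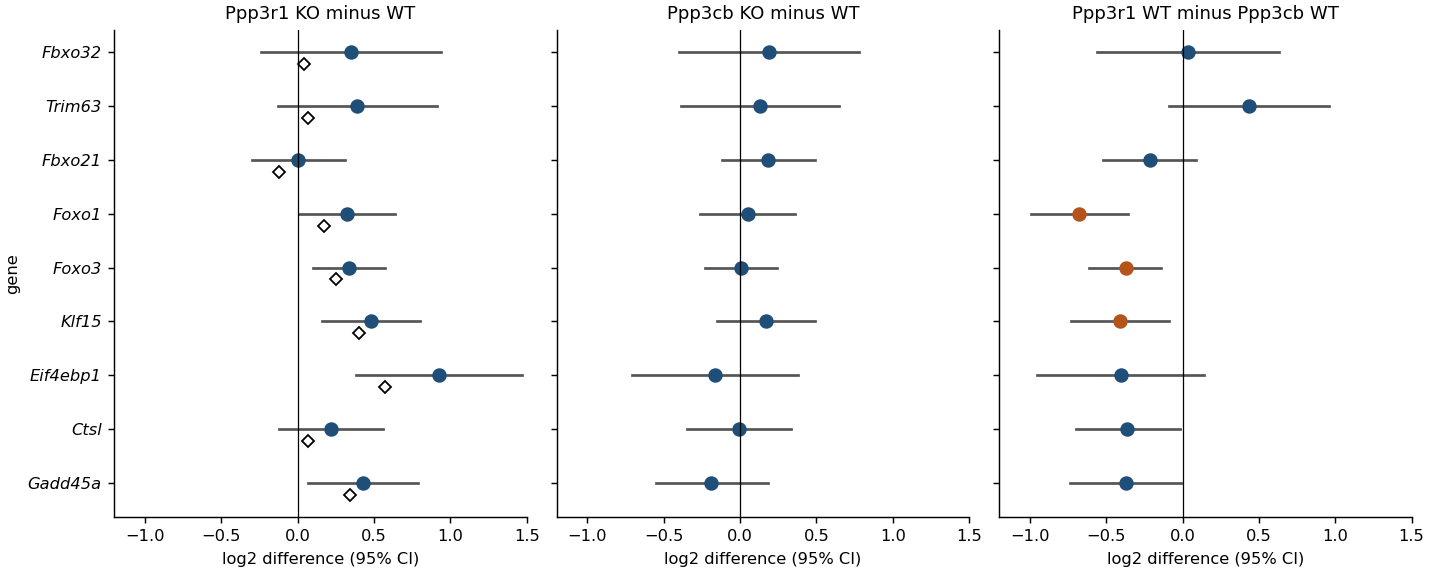
Log2 difference of each gene in 3 comparisons (points), with 95% confidence intervals from limma (lines). Orange points have an adjusted p under 0.05, and open diamonds in the left panel give the difference without Ppp3r1 KO animal 414, which is 0.04 for Fbxo32 and 0.57 for Eif4ebp1.

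Other genes of the pathway did not move as one block in Ppp3r1 KO muscle, and none of them was called. The median of all tested clusters was 0.02. Of 15 genes of the glucocorticoid receptor and its targets, 12 were higher, with a median of 0.50, where 54.2% of all clusters were higher. At an unadjusted limma p under 0.05 there were 8 higher and 1 lower, against 6.37% and 5.35% of clusters. This list, too, was chosen with earlier results of these data known. The targets with the smallest p were all higher. Lpin1, a lipin phosphatidate phosphatase, differed by 0.51 (SE 0.15), the PI3-kinase regulatory subunit Pik3r1 by 0.75 (SE 0.25), the transcription factor Cebpb by 0.28 (SE 0.10) and the metallothionein Mt2 by 1.58 (SE 0.54). The receptor itself, Nr3c1, differed by -0.30 (SE 0.11). The other lower genes of the list were the targets Tsc22d3, with -0.093 (SE 0.12), and Dusp1, with -0.175 (SE 0.19). Without animal 414 the median was 0.31 and 4 genes had an unadjusted p under 0.05, all higher, against 4.26% of clusters.

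FoxO factors and targets outside the 9 genes showed no common direction. Of 20 such genes 8 were higher and 12 lower (median -0.05). At an unadjusted limma p under 0.05 there were 4 higher and 1 lower, against 6.37% and 5.35% of clusters. Without animal 414 there was 1 higher, against 4.26% of clusters. The probe set taken for Bnip3, a mitophagy receptor, differed by 0.47 (SE 0.17). It was 10414269, the one with the highest mean of those annotated to Bnip3. The KO difference of a further probe set annotated to Bnip3, 10568785, is not given here. Both were assigned by annotation alone and their genomic positions were not checked, so the 0.47 may not be that of Bnip3. The stress sensors Sesn1 and Sesn3 differed by 0.47 (SE 0.19) and -0.31 (SE 0.13), and the insulin receptor substrate Irs2 by 0.28 (SE 0.12). Of 16 other ubiquitin ligases expressed in muscle 6 were higher and 10 lower (median -0.08). Ube4a had 0.60 (SE 0.22) and the myostatin-linked ligase Fbxo30 (MUSA1) -0.23 (SE 0.11). The muscle ligases Fbxo40 and Trim55 had -0.24 (SE 0.12) and -0.26 (SE 0.15).

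Translation and protease genes lay near 0. Of 14 genes of mTORC1, translation and amino acid breakdown 10 were higher (median 0.05), with Prodh, the proline oxidase, at 0.20 (SE 0.08). The probe set taken for Eif4e, the target of 4E-BP1, had -0.28 (SE 0.13). This probe set, 10599855, was assigned by annotation alone, and its genomic position was not checked. Of 9 lysosomal genes 5 were higher (median 0.02), with the protease Ctsb at -0.23 (SE 0.10). Of 11 genes of p53 and growth arrest 7 were higher (median 0.12), and Ccng1, a p53 target, had -0.19 (SE 0.08).

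**Figure D3:**
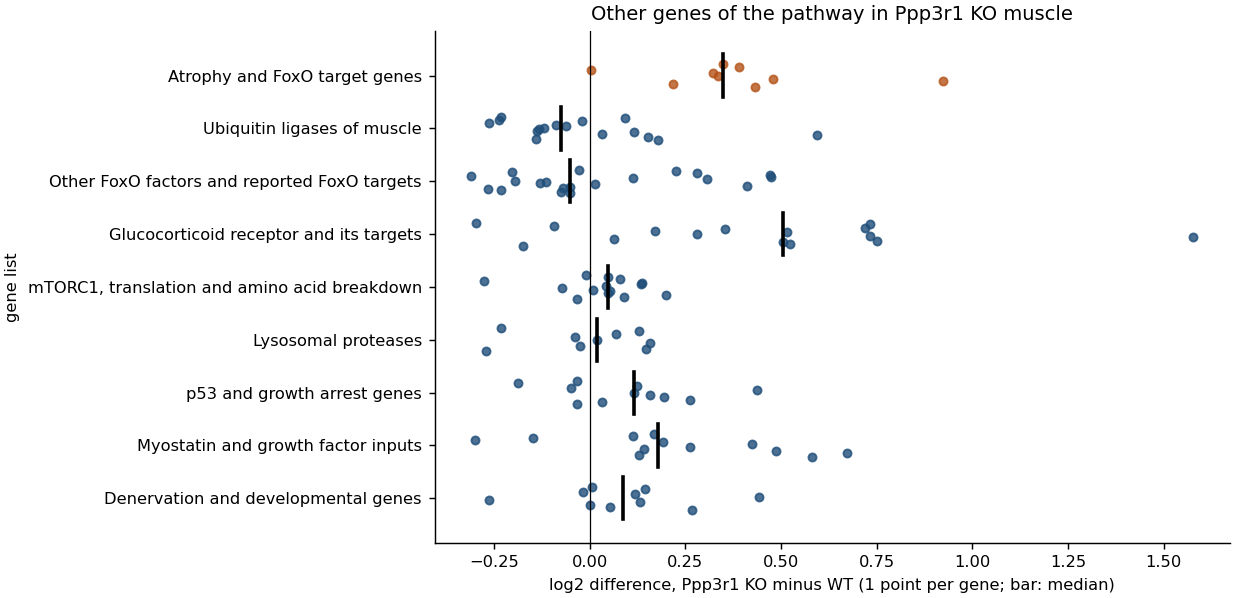
Log2 difference between Ppp3r1 KO and WT muscle, 1 point per gene, for the 9 genes and 8 lists of related genes, with the median of each as a bar. The glucocorticoid list has a median of 0.50 and the 9 genes one of 0.35, while the lists of other FoxO genes and other ligases have medians of -0.05 and -0.08.

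In the Ppp3cb line, by label, the 9 genes differed little. No gene was called with limma (adjusted p = 1 for all 9, with 0% of 15252 clusters called), and 0 had an unadjusted p under 0.05, against 1.73% of clusters. Higher means were seen for 6 genes and lower ones for 3, with a median of 0.05, where 55.9% of clusters were higher. The groups overlapped for all 9, and 0.774% of clusters had all arrays labelled KO above and 0.734% below those labelled WT. Fbxo32 was 11.36, 11.07, 11.93 and 11.36 in animals 18, 5, 6 and 9 labelled KO, and 11.09, 11.97, 10.97 and 10.95 in animals 12, 2, 23 and 24 labelled WT. One array of each label stood well above the rest of its group. Trim63 was 9.47, 9.85, 10.17 and 9.89 in the same KO-labelled animals and 9.72, 10.15, 9.38 and 9.60 in the WT-labelled ones. The array highest for Fbxo32 in each label, animal 6 and animal 2, was also the highest for Trim63. Foxo1 lay between 9.05 and 9.28 in arrays labelled KO and between 8.84 and 9.30 in arrays labelled WT. Foxo3 ran from 8.22 to 8.41 and from 8.20 to 8.54, a difference of 0.00 (SE 0.11). Both FoxO factors had KO-labelled values inside the WT-labelled range. Klf15 was 8.54, 8.76, 9.21 and 8.80 in animals 18, 5, 6 and 9 and between 8.55 and 8.80 in arrays labelled WT, and animal 6 again stood highest. Fbxo21 had a difference of 0.18 (SE 0.14) and Ctsl one of -0.01 (SE 0.16). The largest difference was that of Fbxo32, 0.19 (SE 0.28, 95% interval -0.40 to 0.78), and Eif4ebp1 and Gadd45a had -0.16 (SE 0.26) and -0.19 (SE 0.17). Leaving out animals 6, 9, 23 and 24, a choice made after the data were seen, Fbxo32 had -0.31, Trim63 -0.27, Eif4ebp1 0.28 and Gadd45a 0.20, so that the signs of these 4 turned, and none was called.

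The related gene lists had medians between -0.04 and 0.10 by label, with no gene called.

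The arrays of this line were also set out by their Ppp3cb value, as a description without a test. Arrays of animals 18, 5, 23 and 24 lay below a log2 value of 11, and those of animals 6, 9, 12 and 2 above it. Eif4ebp1 was 9.87, 9.85, 10.14 and 10.37 on the arrays below and 9.65, 9.65, 9.41 and 9.74 on those above. These ranges did not overlap, as was true of 6.58% of all clusters in the same direction and 5.58% in the other. Fbxo32 ran from 10.95 to 11.36 on the arrays below and from 11.09 to 11.97 on those above, with medians of 11.02 and 11.65. For Trim63 the ranges were 9.38 to 9.85 and 9.72 to 10.17. Both ligases had the lower median where Ppp3cb was low, with overlapping ranges. Gadd45a had medians of 7.89 below and 7.61 above. For the other 5 genes the medians of the arrays below and above differed by 0.20 or less. Summed slow-fibre markers spanned 13.60 to 15.10 on the arrays below and 13.68 to 15.39 on those above, and macrophage markers 10.63 to 11.75 and 11.03 to 11.65. Their part in these values was not tested.

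**Figure D4:**
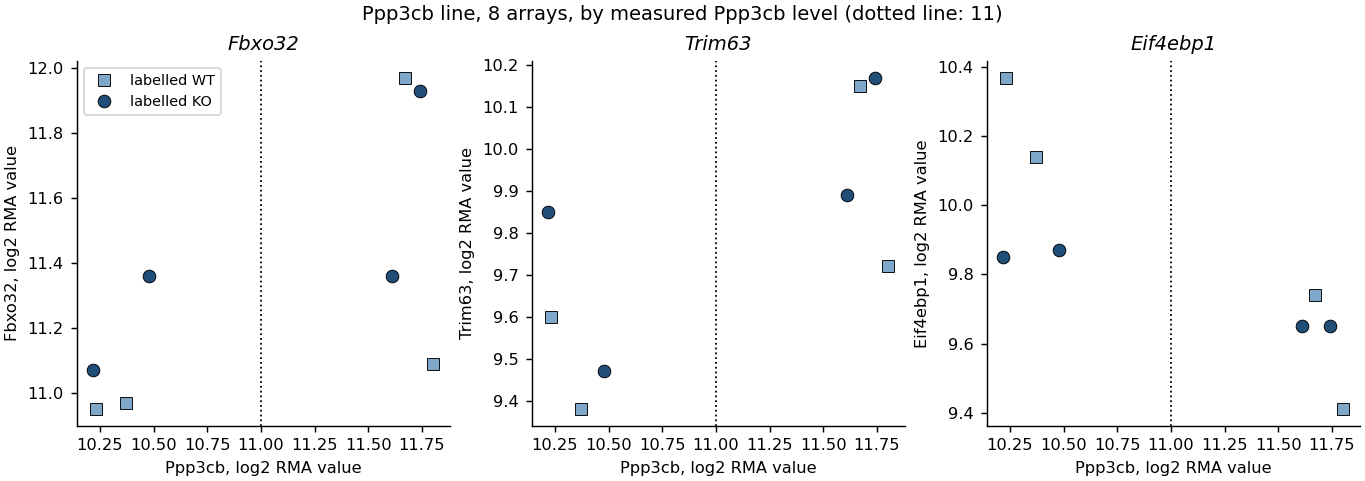
Log2 values of Fbxo32, Trim63 and Eif4ebp1 against that of Ppp3cb on the 8 arrays of the Ppp3cb line, squares for arrays labelled WT and circles for arrays labelled KO, with the dotted line at 11. Each label has 2 arrays on either side of the line, and Eif4ebp1 is higher on all 4 arrays to its left.

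The difference between the KO effects of the 2 lines was tested directly. None of the 9 genes was called (lowest limma adjusted p = 0.821, with 0% of clusters called), and 2 had an unadjusted p under 0.05, Eif4ebp1 with 1.09 (SE 0.37) and Gadd45a with 0.62 (SE 0.25), against 2.56% of clusters in that direction. The Ppp3cb side of this difference rests on the contradicted labels.

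Between the WT groups the 9 genes were called about as often as all clusters. Foxo1, Foxo3 and Klf15 were lower in Ppp3r1 WT than in Ppp3cb WT muscle, 3 of 9 genes, where 35.0% of all 15252 clusters were called, 24.3% lower and 10.7% higher. Foxo1 lay between 8.27 and 8.55 in Ppp3r1 WT, and was 8.90, 9.30, 9.28 and 8.84 in Ppp3cb WT animals 12, 2, 23 and 24, so that the groups did not overlap. Its difference was -0.68 (SE 0.15, limma adjusted p = 0.00362), a 1.60-fold difference. Foxo3 differed by -0.37 (SE 0.11, limma adjusted p = 0.0174) and Klf15 by -0.41 (SE 0.15, limma adjusted p = 0.044), also with groups that did not overlap, as in 22.7% of clusters. Foxo3 lay between 7.80 and 8.14 in Ppp3r1 WT against 8.20 to 8.54 in Ppp3cb WT, and Klf15 between 7.93 and 8.47 against 8.55 to 8.80. Of the 9 genes 7 were lower, as were 61.5% of clusters, and the median of all clusters was itself -0.10. With each array centred on its median over the tested clusters Foxo1 had -0.51 and was called, while Foxo3 with -0.20 and Klf15 with -0.24 were not. Medians over all probe sets ran the other way between the lines, and centring on those was not run. With repeated quantile normalization Foxo1 alone of the 3 was called again, at -0.43.

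Trim63 lay on the other side. It was 9.72, 10.15, 9.38 and 9.60 in Ppp3cb WT animals 12, 2, 23 and 24 and 10.03 to 10.30 in Ppp3r1 WT, a difference of 0.43 (SE 0.25, limma adjusted p = 0.17). With the arrays centred in the same way the Trim63 difference was 0.60, not called (limma adjusted p = 0.07). Fbxo32 was 10.95 to 11.97 and 11.06 to 11.48 in the same groups, a difference of 0.04 (SE 0.28). Fbxo21, Eif4ebp1, Ctsl and Gadd45a differed by -0.22, -0.40, -0.36 and -0.37, none of them called (limma adjusted p from 0.0852 to 0.245). The order of the group means of Foxo1 was Ppp3cb KO (9.13), Ppp3cb WT (9.08), Ppp3r1 KO (8.73) and Ppp3r1 WT (8.40), and the ranges of neighbouring groups in this order overlapped. Both Ppp3cb WT animals with a low Ppp3cb value stand in this comparison. Without animals 6, 9, 23 and 24 Foxo1 had -0.70 and was called, and Foxo3 and Klf15 were not.

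Tissue markers also differed between the WT groups. All 9 slow-fibre markers were lower in Ppp3r1 WT (median -1.61), with a summed level of 11.33 to 13.28 against 13.60 to 15.39 in Ppp3cb WT, and all 10 tested macrophage markers were lower (median -0.84). Of the 15 genes of the glucocorticoid receptor and its targets 14 were lower, where 61.5% of clusters were. They include the receptor Nr3c1 itself, at -0.065 (SE 0.11), not called. Of the targets 7 were called lower (24.3% of all clusters were called lower). Fkbp5, a co-chaperone of the receptor, was at -1.46 (SE 0.32, limma adjusted p = 0.00342). Of the 20 other FoxO genes 4 were called lower, a smaller share than the 24.3% of all clusters. They were the autophagy gene Gabarapl1 with -0.70, the mitochondrial superoxide dismutase Sod2 with -0.31, Sesn3 with -0.48 and Sesn1 with -0.67. Of 16 other ubiquitin ligases 8 were called lower and 1 higher, against 24.3% and 10.7% of clusters. The part of fibre type and other cells in the FoxO differences was not tested. Line, colony and any separate handling cannot be told apart.

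Across mice of the same group some of the genes varied together. Deviations of each array from its group mean were correlated over 16 arrays for all 36 pairs, and 32 pairs had r above 0 (median 0.45), or 26 (median 0.16) without animal 414. An adjusted p under 0.05 was reached by 3 pairs. Fbxo32 and Trim63 had r = 0.90 (permutation p = 0.00158, adjusted 0.029) and rho = 0.76 (permutation p = 0.00568, adjusted 0.102). Within the Ppp3cb line r was 0.79 and within the Ppp3r1 line 0.97. It was 0.78 without the 2 arrays farthest from the median and 0.84 without animal 414. Fbxo32 and Klf15 had r = 0.72 (permutation p = 0.00327, adjusted 0.0392) and rho = 0.80 (permutation p = 0.0017, adjusted 0.0612), with 0.70 and 0.73 within the lines, 0.73 without the 2 farthest arrays and 0.69 without animal 414. Eif4ebp1 and Gadd45a, the other such pair, named after its values were seen, had r = 0.69 (permutation p = 0.00161, adjusted 0.029) and rho = 0.69 (permutation p = 0.00995, adjusted 0.119), with 0.80 and 0.71 within the lines, 0.70 without the 2 farthest arrays and 0.72 without animal 414. Eif4ebp1 and Ctsl, with the second largest r, did not pass the adjustment, with r = 0.72 (permutation p = 0.0305, adjusted 0.183) and rho = 0.47 (permutation p = 0.144, adjusted 0.466). That relation was 0.49 within the Ppp3cb line and 0.81 within the Ppp3r1 line, and it was 0.43 without the 2 farthest arrays, on which it rests, and 0.59 without animal 414.

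**Figure D5:**
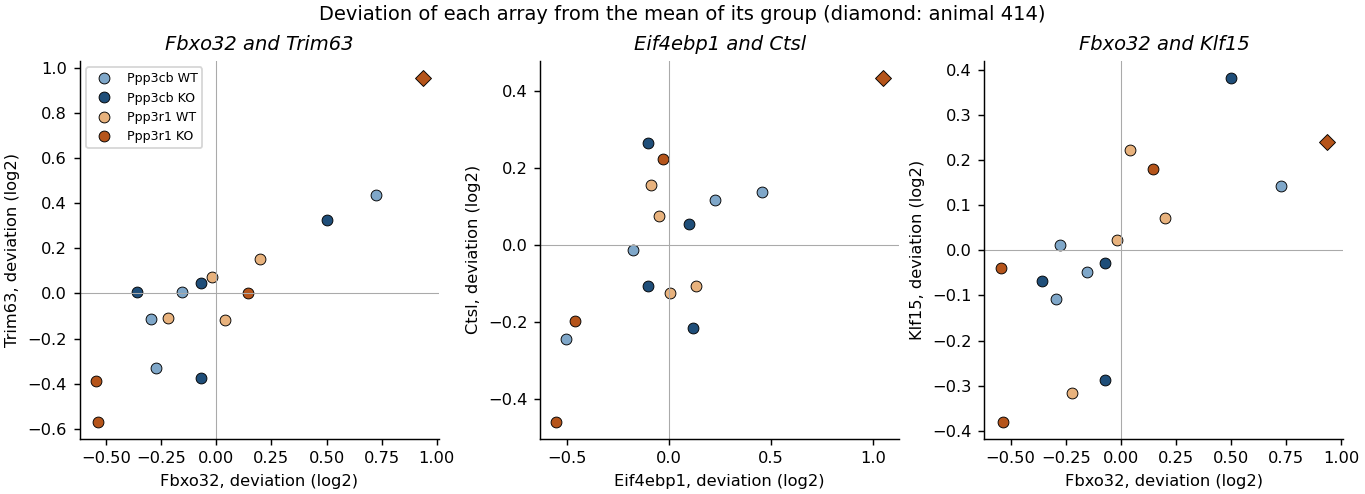
Deviation of each array from its group mean, in log2 units, for the 3 pairs of genes with the largest correlation, coloured by group. Fbxo32 and Trim63 lie along one line in both line groups (r = 0.90), with animal 414 (diamond) at the upper end.

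Genes whose deviations were most like those of a member over the 16 arrays are named as a description. For Fbxo32 they were Gyg (glycogenin, which primes glycogen), Sesn1 and Taf1d, each with r = 0.91, or 0.86, 0.91 and 0.88 without animal 414. Trim63 was followed by Vma21 (r = 0.94), the Z-disc protein Pdlim3 (0.93) and Gyg (0.93). For Eif4ebp1 the nearest were Bnip3 (r = 0.90), Atf4, the amino acid stress factor (0.90), and the Z-disc protein Myot (0.89), or 0.80, 0.79 and 0.78 without animal 414. The Bnip3 probe set here was 10568785, not the one whose KO difference is given above. Foxo1 was followed by Fubp1 (0.95), the salt-inducible kinase Sik1 (0.92) and Pdlim5 (0.92). The genes nearest to Foxo3 were Dapk3 (0.95), Smad4 (0.94) and Abi1 (0.94), and those nearest to Klf15 were Fam76b (0.91), Uvrag (0.88) and Nectin3 (0.87). Fbxo21 lay closest to Commd4, the kinase Mtor (both 0.94) and Tnpo2 (0.93). Ctsl lay closest to Ptp4a3 (0.91), Olfr690 (0.89) and Myot (0.86), and Gadd45a to Myo16 (0.86), Fsd1 and Armcx4 (both 0.85).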

How the data were processed

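For the deposited log2 values the authors used GCOS 1.0 and RMA, a quantile-normalizing summary of probes, per the submitters' processing notes. Both deposited tables held the same values for 35557 probe sets (0 differed). Deposited ratio values, called normalized per the file headers, were the linear value over the median of the line and were not tested. Not given in the sources used here are the build, any filter and whether the lines were normalized together.

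GEO's platform annotation gave 1 symbol for 21789 probe sets, several for 1621, and did not list 12147. Transcript clusters (probe sets with 1 symbol) were tested where their mean reached percentile 30, or 6.18 on the log2 scale, which left 15252. The 4 group means were estimated over the 16 arrays together with limma 3.58.1 under R 4.3.3 (intensity trend, 12 residual degrees of freedom, Benjamini-Hochberg over all clusters, adjusted p under 0.05 called). Each gene has a common variance over all 4 groups, although the Ppp3r1 KO group spread more than its WT group in every member. Single genes were also compared by an exact permutation test of 4 against 4 arrays. Arrays are separate mice, and their number limits the precision. Correlations used 100000 permutations within groups, over 36 pairs since 1 listed gene had no value.

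The members and lists were chosen with earlier results of these data known. Named are the members, the targeted genes, up to 4 genes per list with the smallest p in the Ppp3r1 comparison, genes called, defining markers, and the 3 tested genes most like each member, predicted genes passed over. Also named are the genes of the glucocorticoid list that were lower in Ppp3r1 KO muscle. Functions were tested on simulated data. Alternatives covered the filter, normalization, array weights, the variance prior, each line on its own, the threshold, 1 cluster per gene, the animal number series as a block and each array left out. Centring and repeated quantile normalization were run on the tested clusters only.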

Additional observations from a re-analysis of the deposited data

Results flagged for a closer look

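One of the 36 sets of 4 arrays (9 genes in 4 groups) held an array far from the others. Fbxo32 in the array labelled Ppp3cb WT of animal 2 was 11.97, above 11.09, 10.97 and 10.95 in its group, and its gap to the nearest array took 0.858 of the range of the group, above Dixon's 95% critical value for 4 arrays. Chance marks about 1 in 20 such groups.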

How the results depend on the processing

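No analysis paired by litter was run, as the sample titles hold line, label and animal number but no litter. The animal number series was used as a block in an alternative for the Ppp3r1 line. None of the 9 genes was called in either KO comparison, or in their difference, under any of 28, 27 and 26 alternatives run. Between the WT groups 3 genes were called, against 1 with repeated quantile normalization, 1 with arrays centred on their median, 5 at a threshold of 0.1, 1 without animals 6, 9, 23 and 24, whose Ppp3cb value contradicts the label (an alternative added after the data were seen), and 1 to 3 with an array left out. In that comparison Foxo1 was called in 26 of 26 alternatives. Klf15 kept its call in 8 of 16 omissions of an array and Foxo3 in 14, losing it without Ppp3cb WT animal 23 and without Ppp3r1 WT animal 336.

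Some values turned sign, the largest of them 0.26 in size as reported. They include Fbxo32 and Gadd45a in the Ppp3cb line, 0.19 and -0.19 as reported, the largest differences of that line. With repeated quantile normalization Foxo3 had -0.03 in the Ppp3cb line and Fbxo21 0.01 between WT groups. With centred arrays Fbxo21 had -0.01 in the Ppp3r1 line and Foxo3 -0.02 in the Ppp3cb line. With array weights Ctsl had 0.08 in the Ppp3cb line, and the difference between lines was -0.09 for Fbxo32, -0.03 for Trim63 and -0.03 for Ctsl. Without those 4 animals Fbxo32, Trim63, Klf15, Eif4ebp1, Ctsl and Gadd45a had -0.31, -0.27, -0.06, 0.28, 0.04 and 0.20 in the Ppp3cb line, and Fbxo32 -0.25 between WT groups. With each array left out, Foxo1, Foxo3 and Ctsl ran from -0.03 to 0.12, -0.04 to 0.08 and -0.09 to 0.06 in the Ppp3cb line, Fbxo21 from -0.12 to 0.17 in the Ppp3r1 line, and Fbxo32 from -0.06 to 0.28 between WT groups. The difference between lines ran from -0.15 to 0.34 for Fbxo32 and from -0.06 to 0.45 for Trim63. The causes were not tested.

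Counts over all clusters ran from 0 to 12 in the Ppp3r1 line (1 as reported, 12 without KO animal 416), 0 to 14 in the Ppp3cb line (14 without those 4 animals), 0 to 7 for the difference and 3099 to 7138 between WT groups (5343 as reported). Other probe sets of the 9 genes were not run, since each of them has 1.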

Other observations

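Growth factor inputs to the programme were also read in Ppp3r1 KO muscle. Of 12 such genes 10 were higher (median 0.18), none called. At an unadjusted limma p under 0.05 there were 4 higher and 1 lower, against 6.37% and 5.35% of clusters. The kinase Akt1, which holds FoxO factors in the cytoplasm, differed by 0.67 (SE 0.21), the interleukin-6 receptor Il6ra by 0.58 (SE 0.19), the insulin receptor substrate Irs1 by 0.49 (SE 0.20) and the receptor Igf1r by 0.26 (SE 0.11). Without animal 414 the median was 0.16.

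Of 10 tested genes of denervation and development 8 were higher (median 0.09) and none was called. Runx1, a transcription factor induced by denervation, differed by 0.44 (SE 0.18), the perinatal myosin Myh8 by 0.27 (SE 0.11) and the adhesion molecule Ncam1 by -0.26 (SE 0.15). Without animal 414 the median was -0.01.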
